A study of Mus musculus with 54 samples.

Results

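Zfp982 is a Krüppel-associated box zinc finger protein (KZFP) whose binding sites in mouse F9 embryonal carcinoma cells are described here as all peaks of its ChIP-seq list. The list holds 4746 of the 25012 peaks deposited for 42 KZFPs, or 18.97%. One peak lies on an unplaced scaffold, and the other 4745 lie on chromosomes and were used below. The protein was over-expressed from a coding sequence with an HA tag at its C terminus, and its DNA was recovered with an antibody against HA. All 42 lists come from the same cell line and the same over-expression vector, with a mixed input library per batch as the background. Zfp982 belongs to batch 1, with Zfp978 and Zfp979 as the other KZFPs of that batch. There is 1 library per KZFP, so values for Zfp982 carry counting error but no error between repeat experiments. An over-expressed tagged protein is a model of where the protein can bind in F9 cells and not a measure of the endogenous protein. The 12 samples without a peak list here (empty vector, mixed input and HGTC8 embryonic stem cells) were not analysed.

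KZFPs join a KRAB domain to a row of zinc fingers. The fingers read a DNA sequence, and the KRAB domain recruits TRIM28 (also called KAP1), which brings histone H3K9 methylation and silencing. Many KZFPs bind endogenous retroviruses, whose long terminal repeats (LTRs) hold the promoter of the virus and begin with the bases TG. The Zfp982 gene lies in the young KZFP gene cluster of chromosome 4, at chr4:147545583-147601280 on the plus strand of GRCm39 (ENSMUSG00000078496), and no Zfp982 peak overlapped it. RLTR13B is the LTR family that the study assigns to Zfp982.

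The sequences that carry the main pattern are shown first. Motifs for Zfp982 come from the study, one found in the peaks by MEME and the other by RCADE, which combines the peaks with the zinc finger sequence. The last 4 bases of the RCADE motif (AGAC) are the first 4 of the MEME motif, and the motifs join there into 1 site of 16 bases.
MEME motif: AGACCCTCTGG
RCADE motif: GCCGCAGAC
Joined site: GCCGCAGACCCTCTGG

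The largest group of similar sequences among the peaks is called the LTR family here and is defined below. No repeat annotation was used, so whether this group is an LTR, or the RLTR13B of the study, was not tested. Where LTR is written of these sites and copies, this group is meant. The starts of the 5 most enriched members of the family are shown, with 20 bases before the conserved stretch described below and the first 60 bases of it. They are in the direction of the MEME motif and with the MEME site in capitals. In 3 of the 5 the site is exact. At Bcat1 it carries T9G and at Gm14142 it carries T9C, where positions count from 1 at the 5′ end of the MEME motif and the base of the motif comes first.
Gm40085, chr3:87386321-87386400, plus strand: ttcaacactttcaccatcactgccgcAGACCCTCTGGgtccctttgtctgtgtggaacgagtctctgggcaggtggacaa
Bcat1, chr6:145017140-145017219, minus strand: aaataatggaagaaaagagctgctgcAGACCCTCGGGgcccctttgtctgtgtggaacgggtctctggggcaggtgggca
Gm61684, chrX:13162062-13162141, plus strand: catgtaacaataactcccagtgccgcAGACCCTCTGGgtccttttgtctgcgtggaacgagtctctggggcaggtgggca
Gm14142, chr2:150790382-150790461, minus strand: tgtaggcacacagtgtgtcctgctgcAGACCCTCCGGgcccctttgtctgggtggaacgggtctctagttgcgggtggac
Rad1, chr15:10496582-10496661, plus strand: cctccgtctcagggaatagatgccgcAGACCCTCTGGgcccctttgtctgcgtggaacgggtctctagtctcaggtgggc

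The 20 bases on the left differ from element to element, while the bases from tgccgc or tgctgc onward are nearly the same. For contrast, 4 copies of the same LTR that held no Zfp982 peak are shown, the 2 most similar to the family centre that carry C6T and the 2 most similar that carry G11A. Their sites in capitals differ from the motif by that 1 base.
C6T copy 1, chr1:170066016-170066095, plus strand: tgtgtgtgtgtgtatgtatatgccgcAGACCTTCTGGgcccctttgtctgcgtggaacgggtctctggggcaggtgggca
C6T copy 2, chr2:12885669-12885748, minus strand: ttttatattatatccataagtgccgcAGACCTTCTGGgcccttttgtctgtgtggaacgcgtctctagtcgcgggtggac
G11A copy 1, chr14:88309360-88309439, minus strand: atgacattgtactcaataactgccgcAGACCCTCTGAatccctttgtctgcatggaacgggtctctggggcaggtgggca
G11A copy 2, chr6:122965902-122965981, plus strand: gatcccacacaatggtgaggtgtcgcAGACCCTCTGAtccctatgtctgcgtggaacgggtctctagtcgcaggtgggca

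The 4745 sites fell into 3 sets of unequal size and sequence. At 2626 sites (55.3%) the summit lay within 1000 bp of an annotated transcription start and outside the LTR family, and these are called promoter sites. The LTR family held 950 sites (20.02%), and 1169 sites (24.6%) belonged to neither. Promoter sites had a median GC content of 72.5% in the 200 bp around the summit and a median of 22 CpGs. LTR sites had a median GC content of 48.0% and 4 CpGs, and the other sites 52.5% and 4 CpGs. Over the whole list, 55.9% of summits were at promoters whether or not they were in the LTR family (54.5% to 57.3%, exact 95% binomial interval, as for all intervals below). Sequence of that kind makes up 8.38% of the genome outside gaps. A further 3.86% of summits were in exons outside promoters, 19.7% in introns and 20.6% between genes, against 4.41%, 45.5% and 41.7% of the genome. Intervals cover counting error only.

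Fold enrichment over the batch input, as the authors' peak caller gave it, ran from 10.0 to 195 with a median of 16.1. The lower end was set by the authors' threshold of 10, and the 5 lowest peaks all had a fold of 10.0. LTR sites had a median fold of 21.9 (quartiles 15.4 and 32.5), promoter sites 15.2 (11.97 and 22.7) and other sites 14.7 (11.6 and 21.2). Widths ran from 335 to 9786 bp with a median of 895 bp. Promoter peaks were the widest, with a median of 1075 bp, against 742.5 bp for LTR peaks and 678 bp for the others. The summit lay a median of 75 bp from the middle of the peak.

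The share of the LTR family rose with the fold up to 50. It was 8.23% of the 1094 peaks of fold 10 to 12, 12.8% of those of fold 12 to 15, 19.4% of those of 15 to 20, 29.6% of those of 20 to 30 and 38.1% of those of 30 to 50. Among the 269 peaks of fold 50 or more it was 30.1%, and promoter sites made up 52.8%. Promoter sites were more frequent than LTR sites in every bin, with 60.6% against 8.23% at fold 10 to 12. The shares were closest at fold 30 to 50, with 42.6% against 38.1%.

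**Figure D1:**
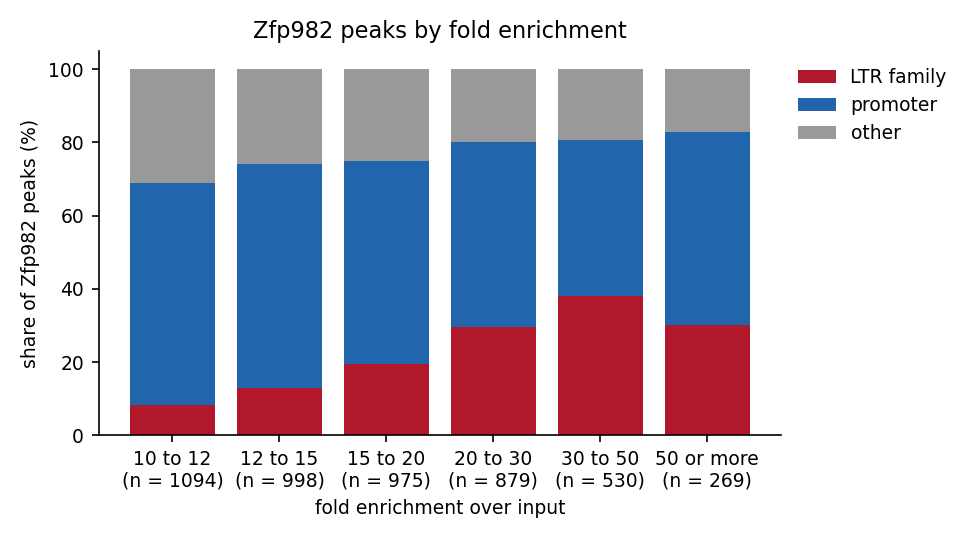
Share of Zfp982 peaks (%) in the LTR family (red), at promoters (blue) and elsewhere (grey) in 6 bins of fold enrichment over input, with the number of peaks under each bar. The red share is 8.23% in the lowest bin and 38.1% in the bin of fold 30 to 50.

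The 200 bp windows around the summits were aligned to each other to find sequences present more than once. The LTR family, defined as the window with most matches and all windows that align to it over at least 100 bp at 80% identity or more, held 950 windows on 20 chromosomes, 20.02% of the list (18.9% to 21.2%). Of these, 555 lay between genes, 341 in introns, 27 in exons and 27 at promoters. Only 6 of the 20230 windows of the other 41 lists aligned to its centre in the same way, 5 of Zfp_MB026 and 1 of Zfp_MB016. The MEME motif was exact in 823 of the 950 windows (86.6%), differed by 1 base in 120 and by 2 or 3 bases in 7.

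The LTR sites lay at the first bases of a conserved stretch, whose outer end is taken here as the start of the element. In the 823 windows with the motif, aligned on it, the bases before the motif were the same in most elements for 6 positions and then became unlike each other. The commonest 2 bases at the outer end were T, in 98.9% of windows, and G, in 99.3%. The information per base, which is 2 bits where all elements share a base and 0 where all 4 bases are equally common, averaged 1.51 bits over the 19 of the first 30 bases of the stretch that lie outside the motif. The 11 bases of the motif are at 2 bits by the choice of windows. Over the 30 bases before the stretch it averaged 0.0517 bits. Peak summits lay a median of 17 bp into the stretch (quartiles 10 and 22 bp), and 816 of 823 (99.1%) lay within 50 bp of its start. They gathered at 3 places, with 79 summits at 9 bp, 86 at 17 bp and 35 at 25 bp. The motif, on which these windows were aligned, covers bases 7 to 17 of the stretch.

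**Figure D2:**
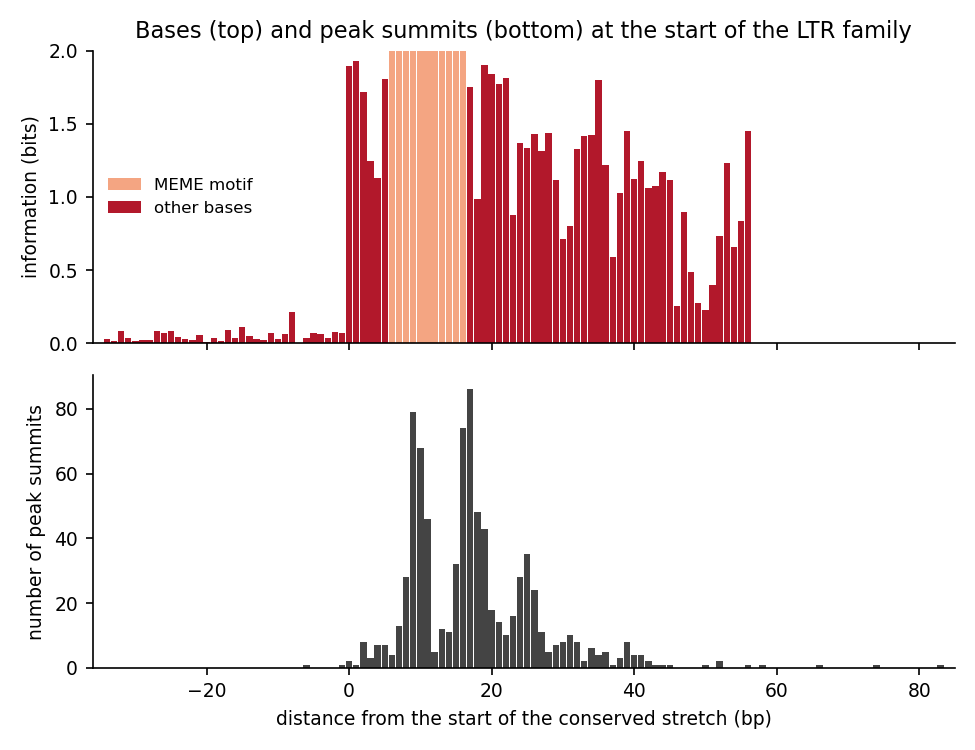
Top, information per base (bits) in the 823 LTR family windows with the MEME motif, by distance from the start of the conserved stretch (bp), with the motif, which every window holds, in light colour, and bottom, number of peak summits at each distance. Information averages 0.0517 bits over the 30 bases before the start, and summits gather at 9, 17 and 25 bp behind it.

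Not every copy of the LTR in the reference genome was bound, meaning under a Zfp982 peak, which allows bound and unbound copies of 1 sequence to be compared. Whether F9 cells carry each copy with the same bases was not tested. The first 200 bases of the element at the family centre matched 1915 places on the chromosomes at 80% identity or more, and 843 of them (44.0%, 41.8% to 46.3%) were under a Zfp982 peak. The chromosomes differed. Of 1416 autosomal copies 765 were bound (54.0%), of 216 on the X chromosome 78 (36.1%) and of 283 on the Y chromosome 0 (upper limit 1.30%). The Y copies were mostly of 1 kind, with 255 of 283 carrying C5A. Of copies with C5A elsewhere, 5 of 29 on the X chromosome (17.2%) and 4 of 8 on the autosomes were bound. The Zfp982 list had 5 peaks on the Y chromosome in all. How well reads covered the Y chromosome in these cells was not tested. The values that follow on copies are from autosomes.

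On the autosomes the bound share fell with mismatches to the motif. The study called the MEME motif on these same peaks, so a higher share at exact copies is partly fixed in advance. Among copies whose alignment missed at most 5 of the first bases of the element, 671 of 854 with an exact MEME motif were bound (78.6%, 75.7% to 81.3%). With 1 mismatch 85 of 383 were bound (22.2%, 18.1% to 26.7%), and with 2 or more mismatches 7 of 143 (4.90%, 1.99% to 9.83%). Of 36 copies whose alignment began further in, 2 were bound. Whether these copies lack the first bases was not tested. Among copies with the exact motif, 78.04% of 510 at 80 to 85% identity were bound, 80.6% of 279 at 85 to 90% and 73.8% of 65 at 90 to 100%. These 3 intervals overlap.

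The bound share also differed with the position of the mismatch. A change of the base at position 6 left 10 of 148 copies bound (6.76%, 3.29% to 12.1%), and nearly all such copies carried C6T, with 7 of 143 bound, while 3 of 4 with C6A were bound. A change at position 11, the last base, left 0 of 27 bound (upper limit 12.8%), and a change at position 4 left 3 of 27 (11.1%). By contrast, 20 of 45 copies changed at position 5 were bound (44.4%, 29.6% to 60.003%) and 25 of 64 changed at position 10 (39.1%, 27.1% to 52.1%). The commonest forms at these 2 positions were C5T, with 15 of 34 bound, and G10T, with 21 of 52. The other positions had 20 copies or fewer each. C6T copies were no less similar to the family centre than exact ones, with a median identity of 85.0% against 84.0%.

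The bases of the RCADE motif were counted in the same copies. With the MEME motif exact, 384 of 457 copies with an exact RCADE motif were bound (84.0%, 80.3% to 87.3%), against 287 of 397 without one (72.3%, 67.6% to 76.6%). With the MEME motif changed, 46 of 275 copies with an exact RCADE motif were bound (16.7%), against 46 of 251 without one (18.3%). These groups mix substitutions, and the substitutions differed. Of the 109 C6T copies with an exact RCADE motif 5 were bound (4.59%), of 21 such G10T copies 15 (71.4%, against 40.4% of all 52) and of 22 such C5T copies 10 (45.5%).

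**Figure D3:**
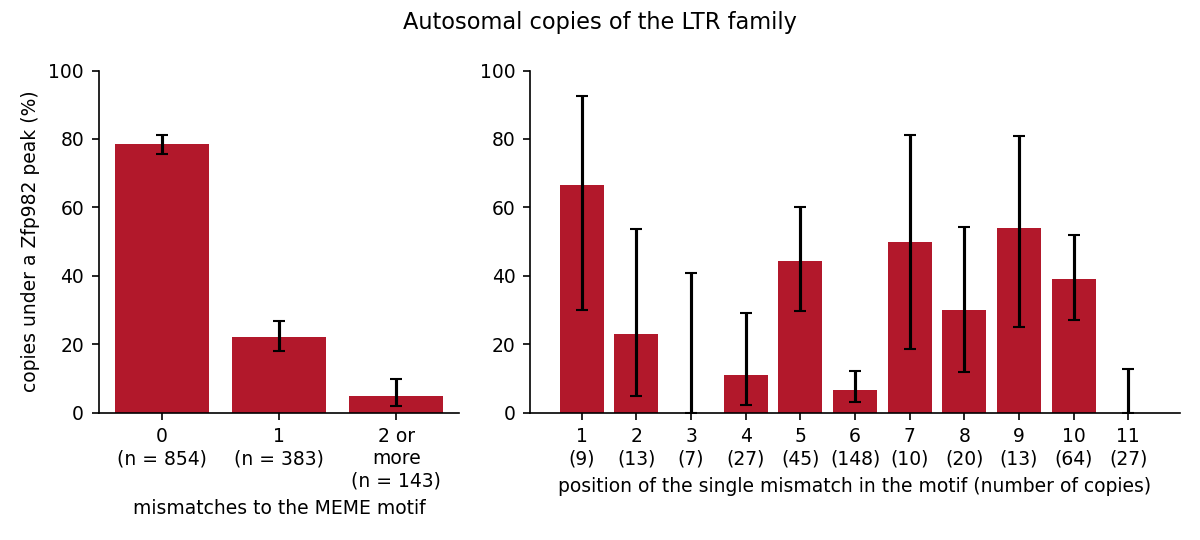
Share of autosomal LTR copies under a Zfp982 peak (%), left by the number of mismatches to the MEME motif and right by the position of a single mismatch, with exact 95% binomial intervals as error bars and the number of copies below. The bars fall from 78.6% with 0 mismatches to 4.90% with 2 or more, and positions 3 and 11 are at 0.

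The place of a copy was set beside its occupancy. Of autosomal copies with the exact motif, 291 of 353 inside genes were bound (82.4%, 78.1% to 86.3%), 359 of 475 between genes (75.6%, 71.5% to 79.4%) and 21 of 26 at promoters, with overlapping intervals for genes and between genes. Inside protein-coding genes, 132 of 155 copies in the direction of the gene were bound (85.2%) and 37 of 45 in the other direction (82.2%). The 5 LTR peaks with the highest fold are named by the nearest annotated start, which need not be the gene that holds them. The peak nearest to Gm40085 (fold 119) was in an intron of Fcrl5, a receptor of the Fc receptor-like family, and the next (108) in an intron of Bcat1, which encodes a branched chain amino acid transaminase. The others were 1734 bp from the start of Gm61684 on the X chromosome (107), in an intron of Ninl near Gm14142 (95.6) and in an exon of Rad1 (94.3), a subunit of the DNA damage checkpoint clamp. None of the 5 was in another list. Neighbouring LTR peaks were far apart, with a median gap of 1553860 bp and none of 1000 bp or less.

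Several smaller groups of similar windows also held the motif. The second largest had 53 windows, of which 90.6% held the MEME motif, with a median fold of 16.6, and the third had 35 windows, of which 42.9% held it. A different kind of repeat made up the fourth, with 27 windows in 1 block of chromosome 8, chr8:124270310-124350950, each within 100 bp of an annotated start. The nearest gene was annotated as ribosomal RNA for all 27, and it was a 5S gene by name for 21 (n-R5s) and for 1 more, Rn5s. Their folds ran from 11.3 to 69.2 with a median of 19.5, none held either motif, and 26 of the 27 windows had an identical window elsewhere in the genome. Since the authors placed reads with several equal alignments at random, these peaks do not tell the gene copies apart. Over the list 105 windows (2.21%) had such an identical window, 32 of them in the LTR family.

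Motif sites followed the same split. Their shares describe the list and are no test, since both motifs were called with these same peaks. Within the summit windows the MEME motif was in 20.8% of the list. In windows shifted 1000 bp toward lower coordinates, whatever the strand, it was in 0.0632%, and in 0.0262% of all 200 bp tiles of the genome. It was in 153 of 1169 other windows (13.1%, 11.2% to 15.2%) and in 10 of 2626 promoter windows (0.381%, 0.183% to 0.699%). With 1 mismatch allowed the shares were 99.3% of LTR windows, 1.64% of promoter windows and 20.6% of other windows. For the shifted windows of the whole list the share was 0.548%. The sites were central where present, a median of 6 bp from the summit in LTR windows and 7 bp in the others.

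Over the genome, 994 of 3682 exact MEME sites were inside a Zfp982 peak (26.996%, 25.6% to 28.5%). Joined to the RCADE motif, as the 16 bases shown above, 560 of 683 sites were inside a peak (82.0%, 78.9% to 84.8%). The joined site had a similar share in copies of the LTR family, with 436 of 524 inside a peak (83.2%, 79.7% to 86.3%), and outside copies and promoters, with 120 of 154 (77.9%, 70.5% to 84.2%). The MEME motif without the RCADE motif before it differed between these places. Inside copies of the LTR 306 of 456 such sites were in a peak (67.1%, 62.6% to 71.4%), against 116 of 2299 outside copies and promoters (5.05%, 4.19% to 6.02%) and 12 of 244 at promoters (4.92%). Sites outside copies can still lie in LTRs less than 80% similar to the family centre. Both motifs were called with these peaks, so the shares of their sites inside peaks are partly fixed in advance.

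Promoter sites were the larger set and held the highest folds of the list, mostly without either motif. Of the 10 peaks with the highest fold 9 were at promoters, and none of the 10 held the MEME or the RCADE motif. The highest was at Sema4b (fold 195, chr7:79847047-79850461), a semaphorin of the cell membrane, with the summit 22 bp from the start. It was followed by Tomm20 (185, chr8:127671589-127673717), a receptor of the mitochondrial import machinery, and by a peak in an exon of Shf (176), the 1 of the 10 away from a promoter. Tulp4 (174), a tubby-like protein, Eif3d (163), a subunit of translation initiation factor eIF3, Brwd1 (162), a bromodomain protein, and Elf2 (154), an ETS family transcription factor, came next. Sin3b (154), a scaffold of histone deacetylase complexes, Gm56598 (149), whose summit was also 69 bp from a start of Cebpd, a C/EBP family transcription factor, Gm73414 (144) and, as the last of the 10 highest promoters, the zinc finger gene Zfp467 (141) completed them. Most of these promoters were rich in CpG, but Sin3b had 5 CpGs and a GC content of 48.5% and Gm73414 had 4 CpGs. The window at the Sema4b summit is shown as the most enriched of the list, with CpGs in capitals.
Sema4b, chr7:79848162-79848361, plus strand: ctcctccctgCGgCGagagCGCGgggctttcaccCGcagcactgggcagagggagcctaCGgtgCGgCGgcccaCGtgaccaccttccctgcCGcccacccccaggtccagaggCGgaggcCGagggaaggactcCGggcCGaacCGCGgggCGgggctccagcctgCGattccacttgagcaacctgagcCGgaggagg

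Promoter summits were close to the start. Of 2626, 1623 (61.8%) were within 100 bp and 2082 (79.3%) within 200 bp, with a median distance of 64.0 bp. Along the gene the median summit lay 12 bp downstream of the start, with quartiles 34 bp upstream and 91 bp downstream. Of the promoter sites, 2297 (87.5%) were at starts of protein-coding genes.

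**Figure D4:**
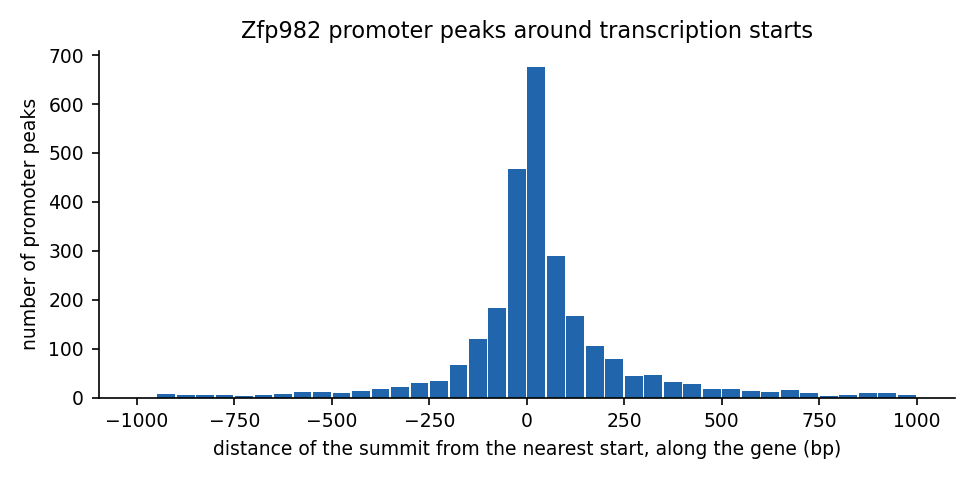
Number of Zfp982 promoter peaks in bins of 50 bp by distance of the summit from the nearest transcription start (bp, negative upstream). Counts peak at the start, and 61.8% of summits lie within 100 bp of it.

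Of 21757 protein-coding genes, 2485 had a Zfp982 summit within 1000 bp of a start, which is 11.4%. The share rose with the number of CpGs within 500 bp of the first start. In 5 equal groups of genes, ordered from fewest to most CpGs and called CpG groups 1 to 5, 0.230%, 1.03%, 5.29%, 13.3% and 25.6% of genes had a summit at that start, against 9.09% of all genes. Genes whose first start lay within 1000 bp of a protein-coding start on the other strand had a summit in 336 of 2705 cases (12.4%), against 1642 of 19052 other genes (8.62%). These genes were not matched for the number of CpGs.

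A small set of promoters held the RCADE motif. It was exact in 55 of 2626 promoter windows (2.09%, 1.58% to 2.72%), against 9 and 10 windows (0.343% and 0.381%) at 400 bp on either side of the summit, where the sequence is also promoter sequence. Among the 500 promoter peaks with the highest fold 27 windows held it (5.40%, 3.59% to 7.76%), and among the 500 with the lowest fold 5 (1.00%, 0.325% to 2.32%). Promoter peaks with it had a median fold of 25.5 (quartiles 14.1 and 46.5), against 15.1 for those without it (11.9 and 22.3). In CpG group 5, 41 of 105 with the motif within 500 bp of the first start had a summit there (39.0%, 29.7% to 49.1%), against 1072 of 4247 without it (25.2%, 23.9% to 26.6%). In CpG group 4 it was 18 of 73 (24.7%, 15.3% to 36.1%) against 562 of 4278 (13.1%, 12.1% to 14.2%). The RCADE motif, called with these same peaks, was looked at in promoters after the folds had been seen. The 3 such promoters with the highest fold are Ube2ql1 (fold 114), a ubiquitin conjugating enzyme family member, 0610040F04Rik (95.2), 490 bp from a start of the transcription factor gene Bhlhe40, and Arl5b (84.8), a small GTPase. Their sites are shown with 25 bases on either side and the RCADE motif in capitals. The bases after the motif are not those of the MEME motif.
Ube2ql1, chr13:69887765-69887823, plus strand: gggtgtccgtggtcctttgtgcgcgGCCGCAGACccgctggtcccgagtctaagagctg
0610040F04Rik, chr6:108637237-108637295, plus strand: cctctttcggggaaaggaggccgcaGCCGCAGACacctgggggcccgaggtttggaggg
Arl5b, chr2:15060160-15060218, minus strand: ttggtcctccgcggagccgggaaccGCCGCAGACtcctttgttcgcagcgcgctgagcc

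Gene lists written from general knowledge were set beside the share of all protein-coding genes, 11.4%, as a description. In the list of KRAB corepressor and heterochromatin genes 9 of 30 had a summit within 1000 bp of a start (30.0%, 14.7% to 49.4%). They were Cbx3 (fold 25.5), an HP1 protein, the DNA methyltransferase genes Dnmt3a (16.1) and Dnmt3b (12.7), and the H3K9 methyltransferase genes Ehmt1 (14.6) and Ehmt2 (14.9). The other 4 were Resf1 (15.4), Kdm1a (13.8), a histone demethylase, Tasor (10.6), a subunit of the HUSH complex, and Hdac2 (10.3), a histone deacetylase. This list was also rich in CpG, with 76.7% of its genes in CpG groups 4 and 5, where 13.3% and 25.6% of all genes had a summit at the first start. Trim28 and Setdb1 had none.

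Of 39 pluripotency genes 7 had a summit (17.9%, 7.54% to 33.5%), at Otx2 (fold 24.1), Sox2 (13.8), Fgf4 (12.8), Klf4 (12.6), Zfp57 (12.6), Jarid2 (11.5) and Tbx3 (10.4). Nanog, Zfp42, Dppa3 and Pou5f1 had none. Of 28 imprinted genes 4 had one (14.3%), at Igf2 (21.3), Ube3a (17.01), Plagl1 (14.1) and Phlda2 (13.2), and of 39 Hox genes 4 (10.3%), at Hoxd9 (43.6), Hoxd8 (17.1), Hoxa3 (12.8) and Hoxc13 (11.7). Of 493 zinc finger protein genes 65 had a summit (13.2%, 10.3% to 16.5%), with the highest folds at Zfp467 (141), Zfp853 (83.1), Zfp644 (47.4), Zfp654 (35.6) and Zfp687 (32.8). The intervals of these 4 lists include 11.4%. None of the windows at the named pluripotency, imprinted, Hox and heterochromatin genes held either motif.

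Along the chromosomes the 2 main sets differed. LTR sites numbered 21.9 per 100 Mb outside gaps on chromosome 11, the lowest value of an autosome, and 54.8 on the X chromosome, the highest. Promoter sites numbered 161 per 100 Mb on chromosome 11, the highest value, and 42.6 on the X chromosome, the lowest apart from the Y chromosome.

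The Zfp982 list was then compared with the other 41 as a whole. Each list counts as 1 value in an exact two-sided permutation test of which list is the odd one out, whose smallest possible p is 0.0238. The promoter share of Zfp982 was 55.9%, against a median of 16.3% in the other lists (range 1.06% to 79.2%), rank 3 after Zfp_MB003 with 79.2% and Zfp_MB025 with 78.2% (exact permutation p = 0.0714, Benjamini-Hochberg adjusted p = 0.119 over 5 measures). The median GC content of its windows was 63.5%, against 48.5% (39% to 67%), and the median width 895 bp, against 506 bp (248 to 1018 bp), both also at rank 3 with the same p. The share between genes was 20.6%, against 39.1% (7.27% to 83.3%, exact permutation p = 0.286, adjusted p = 0.286). None of these differences passed 0.05. With 1 list set against 41, a single measure at the smallest p has an adjusted p of 0.119, and at least 3 of the 5 measures would have to be there to pass, so the design allows few calls.

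The batch mates Zfp978 and Zfp979 had 4.17% and 9.52% of peaks at promoters, from 24 and 42 peaks on chromosomes with lowest folds of 5.05. Their median GC contents were 42.75% and 43.25%. In width Zfp979 was close to Zfp982, with a median of 920.5 bp, and Zfp978 had a median of 525 bp. The MACS2 numbers in the peak names reach 41346 for Zfp982, the highest of the 42 lists, against 645 and 644 for Zfp978 and Zfp979. At most 11.5% of its peaks thus passed the control and fold filters, and the Zfp982 library is also the most deeply sequenced of the KZFP libraries by the study's Reporting Summary. The part of depth in the number or width of peaks was not tested.

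Most Zfp982 sites were in no other list. A peak of at least 1 other list overlapped 624 of 4745 sites by at least 1 bp (13.2%, 12.2% to 14.1%), against a median of 63.3% in the other lists (7.12% to 100%, rank 37 of 42, exact permutation p = 0.143, adjusted p = 0.179). Several other lists share their zinc finger array with another list, while Zfp982 has an array of its own. With 1 list per array the share was 12.9%, against a median of 46.1%. The low share was no particular trait of Zfp982 among lists of its size. In the 5 other lists of over 1000 peaks it ran from 7.12% to 19.3%, with 3 of them below Zfp982 and 2 above. The same 5 lists had 8.71% to 26.04% of peaks at promoters, median GC contents of 47.5% to 53% and median widths of 458 to 742 bp, all below the values of Zfp982. These lists were set apart by size after the data had been seen. Of the shared sites 510 were in 1 other list, 98 in 2 to 4 and 16 in 5 or more.

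**Figure D5:**
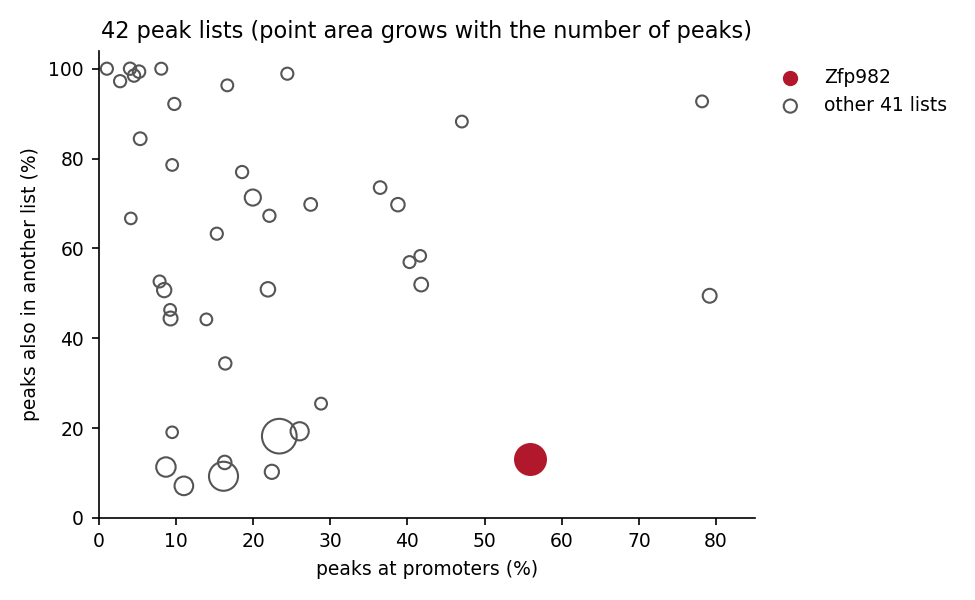
Share of peaks that also occur in another list (%, vertical axis) against the share of peaks at promoters (%, horizontal axis) for Zfp982 (filled) and the other 41 lists (open), with point area growing with the number of peaks. Zfp982 combines 55.9% at promoters with 13.2% shared, and the 2 lists with more promoter peaks share 49.4% and 92.7%.

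Sharing differed between the sets of sites. Of LTR sites 44 of 950 were in another list (4.63%, 3.39% to 6.17%), of promoter sites 480 of 2626 (18.3%, 16.8% to 19.8%) and of the others 100 of 1169 (8.55%, 7.01% to 10.3%). Shared LTR sites had a median fold of 36.9, against 21.4 for those in no other list, while for promoter sites the medians were 14.8 and 15.2. The largest overlap was with the largest list. Zfp_MB016 overlapped 304 Zfp982 sites, 6.41% of the Zfp982 list and 4.98% of its own 6170 peaks, and 248 of the 304 were promoter sites. Zfp982 summits within 100 bp of a Zfp_MB016 summit were fewer, at 118. Without Zfp_MB016 the shared part of the Zfp982 list was 8.01%.

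Next came Zfp_MB026, which overlapped 72 sites (1.52% of the Zfp982 list and 1.75% of its own), Zfp_MB003 with 66 (1.39% and 18.3%), Zfp_MB011 with 48 (1.01% and 17.7%) and Zfp981 with 42 (0.885% and 13.1%). In the same order, Zfp982 summits within 100 bp of a summit of the list numbered 17, 25, 21 and 20. Of the promoter peaks of these lists, 7.83%, 21.4%, 30.7% and 23.6% overlapped a Zfp982 peak. As a share of its own list Zfp_MB025 had the most, 34.5% of 55 peaks, of which 43 were at promoters. Rex2 differed from these, since 11 of the 21 Zfp982 sites it overlapped were LTR sites, but in 3 of the 21 only did the summits lie within 100 bp. Of the batch mates Zfp979 overlapped 1 site and Zfp978 none, and 4 further lists overlapped none.

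The sites found in most other lists were not those with the highest fold. The first was the promoter of Polrmt, the RNA polymerase of mitochondria, in 12 other lists with a fold of 19.5 in Zfp982. An exon of Zfp777 near Gm66313 (12.97) was in 10 and the promoter of Gm57020 (13.9) in 8. In 7 other lists were sites in exons of Dhrsx (25.3), Zfp316 (12.2) and Spred2 (10.7, nearest start Gm32080) and the promoter of Hmgxb4 (19.04), an HMG box protein. In 6 were the promoters of Gm5790 (14.3), Mir290a (13.4), a microRNA gene of embryonic stem cells, and 1700052K11Rik (11.6), whose summit was also 256 bp from a start of Tlk2. The 16 sites in 5 or more other lists had a median fold of 13.6, a median width of 1619 bp and a median GC content of 68.5%, and none held either motif.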

How the data were processed

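The values are from 1 anti-HA ChIP-seq library per KZFP, and the totals of reads are not in the peak files. Paired reads were mapped by the authors with BWA on GRCm39, where a read with equally good places got one of them by chance, and unmapped, duplicate and non-primary reads were dropped. Peaks came from MACS2 with the mixed input of the batch as background. Those touching an empty vector peak by 1 bp were discarded, leaving peaks with a q value of at most 0.01 and a fold of at least 10, or of at least 5 where under 20 were left. The submitters' processing notes name SAMtools 1.19, MACS2 2.2.7.1 and deepTools 3.5.4. The deposited fold enrichment is the value that the authors' peak caller gave for the summit with the mixed input as background. The deposited −log10 p and −log10 q values and the score that the authors' peak caller makes from q entered no printed result.

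Sequence came from GRCm39 and genes from GENCODE M39, the same build. Each summit was classed as promoter (within 1000 bp of a transcript start), exon, intron or intergenic. Windows of 200 bp were aligned with BLAST+ 2.17.0 and grouped around the window with most matches (at least 100 bp at 80% identity). Copies were found with the first 200 bases of the element, and a copy was bound where a peak overlapped it. The letters of both motifs came from the study's supplementary tables and were searched on both strands without mismatch unless stated. No repeat annotation was used, so RLTR13B is the study's name and LTR family is a working name. Lists were compared by an exact two-sided permutation test over 42 lists with Benjamini-Hochberg adjustment over 5 measures, called under 0.05. Functions were tested on simulated data. Other thresholds, windows and subsets of lists were tried. Members, lists and tests were chosen with earlier results of these data known. Named are the 10 highest folds, the 10 highest promoters, the 5 highest LTR members, the 10 sites in most lists and gene list members, of which only 5 zinc finger genes are printed. The 12 samples without a peak list were not used here.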

Additional observations from a re-analysis of the deposited data

How the results depend on the processing

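Directions of the 5 comparisons with the other lists were the same under every alternative run, and none passed an adjusted p of 0.05 by the exact permutation test, which the design nearly fixes and which says nothing about stability. The promoter share ran from 48.5% to 69.2%, the intergenic share from 11.1% to 22.7%, the median GC content from 59.5% to 68.5%, the median width from 895 to 945 bp and the share in other lists from 4.51% to 15.3%. Of the 42 lists, 10 had a lowest fold under 10. With a fold of at least 15 in every list, the width was 938 bp against a median of 618.5 bp in the other lists. That placed Zfp982 at rank 6 of 40 lists in width (exact permutation p = 0.25). Adjusted p ran from 0.0915 to 0.188 for the promoter share and the GC content, from 0.0915 to 0.312 for the width and the share in other lists and from 0.143 to 0.45 for the intergenic share. The share in other lists was 4.51% with summits within 100 bp, 7.48% with an overlap of at least 50% of the peak and 5.88% with a fold of at least 15 in every list. Added after seeing the data were the lists without Zfp_MB016, without Zfp_MB026 and without the LTR family, the autosomes and the RCADE motif.

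The MEME motif share moved from 20.8% to 33.7% with a fold of at least 20, to 25.9% with 1 mismatch and to 23.8% with either motif. The largest family held 8.37% of windows at 90% identity, 22.7% at 70% and 32.4% of windows with a fold of at least 20. The bound share of copies was 63.9% at 90% identity (83 copies), 28.5% at 70% (3995 copies), 25.5% with a fold of at least 20, where fewer peaks count, and 54.0% on autosomes. Of motif sites 15.5% were in a peak of fold 20 or more. No paired analysis was possible because each KZFP has 1 library. Copies without a peak can hold signal below a fold of 10 or lie under a peak of the empty vector control, and depth per site is not in the files. A copy of the reference genome can also be absent or changed in F9 cells, which was not tested.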
